A study of Homo sapiens with 12 samples.

Results

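PPARD, ANGPTL4, HILPDA, PDK4, CPT1A and PLIN2 are 6 genes of fatty acid handling, and their transcripts were followed by RNA-seq in MDA-MB-231 cells, a human triple-negative breast cancer cell line. They were taken by symbol, and the set was chosen by what these 12 libraries had already shown, so the levels below describe the genes and no p-value is given for them. All 6 were among the 19907 gene symbols listed in each library and among the 18579 with enough reads to be tested. The 4 groups of 3 libraries were wt-GR cells with vehicle (Veh), wt-GR cells with TGFβ1, S134A-GR cells with Veh and S134A-GR cells with TGFβ1. TGFβ1 was given at 10 ng/mL for 6 h, after 18 h of serum starvation in IMEM with 1% DCC, a steroid-stripped serum, which every group had. No glucocorticoid was added to any group. S134A-GR cells carry the S134A change, a serine to alanine, in both alleles of the glucocorticoid receptor (GR) gene, made by CRISPR/Cas9, and wt-GR cells are a clone of the same CRISPR population in which the change was not made. Each line is 1 clone, so the mutation and any other difference between the clones cannot be told apart. The labels number the replicates but do not say that they came from separate cultures, so errors measure the spread between these libraries, which may be technical.

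PPARδ, encoded by PPARD, is a nuclear receptor that binds fatty acids and pairs with a retinoid X receptor (RXR) on DNA. Its target genes include ANGPTL4, PDK4, CPT1A and PLIN2, which together turn cells toward storing or burning fatty acids in place of glucose. ANGPTL4 is also a known target of TGFβ1 signaling through SMAD proteins in breast cancer cells, of hypoxia and of glucocorticoids, and its secreted product blocks lipoprotein lipase and loosens contacts between endothelial cells. HILPDA, first known as a hypoxia-inducible gene, encodes a small lipid droplet protein that inhibits the lipase ATGL.

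The sequences just upstream of the start sites of ANGPTL4 and PDK4 are shown because these were the members with the largest TGFβ1 responses, in opposite directions. Both are RefSeq sequences of GRCh38.p14, written 5′ to 3′ on the strand of the gene and ending at the base before the RefSeq start. ANGPTL4 is at chr19:8363905-8364154 on the plus strand and PDK4 is at chr7:95596517-95596766 on the minus strand. The ANGPTL4 stretch and the PLIN2 window searched below lie inside the gene spans given later. Those spans are from GENCODE and begin further upstream. Capitals mark the letters CAGAC, the SMAD box, and ACGTG, the core of a hypoxia element, either as written or on the opposite strand.
ANGPTL4: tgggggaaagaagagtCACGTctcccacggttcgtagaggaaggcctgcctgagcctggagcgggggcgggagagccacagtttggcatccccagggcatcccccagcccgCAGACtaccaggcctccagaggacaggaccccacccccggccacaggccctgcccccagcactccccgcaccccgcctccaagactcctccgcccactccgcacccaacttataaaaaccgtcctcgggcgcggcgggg
PDK4: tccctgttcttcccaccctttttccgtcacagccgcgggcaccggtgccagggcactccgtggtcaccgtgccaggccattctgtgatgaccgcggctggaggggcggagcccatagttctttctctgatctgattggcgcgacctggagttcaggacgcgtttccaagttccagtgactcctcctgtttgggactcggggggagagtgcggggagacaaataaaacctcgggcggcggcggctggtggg
The search used windows of 250 bases before to 50 bases after the start, and such windows were found for 5 of the 6 members, all but HILPDA. In ANGPTL4 the SMAD box spans positions -139 to -135 and the hypoxia core spans positions -234 to -230, counted with the start base as 0. In PDK4 a single SMAD box was found past the start, at 45 to 49, outside the stretch shown. CPT1A had 2 SMAD boxes, and PLIN2 had 3 hypoxia cores, 2 of them overlapping. These short letters are common, and 45.3% of 35116 promoter windows held a SMAD box and 21.4% held a hypoxia core. The direct repeat bound by PPAR and RXR, AGGNCA given again after 1 spacer base, was in 0.3% of all windows and in 0 of the 5 members. The glucocorticoid receptor palindrome, GNACA and TGTNC around 3 spacer bases, was in 0.4% of all windows and 0 of 5, and the AP-1 site, TGANTCA, in 7.7% and 0 of 5. A match is a description of letters and not of a bound site, and known PPAR elements of ANGPTL4 and other targets lie in introns or further away, outside these windows.

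The values are normalized counts, that is, reads per gene divided by the size factor of the library. Recovered totals were 56362036 to 129832227 reads per library, and the floor of 3 reads corresponded to 2.15 to 4.89 normalized counts, far below every member. These totals are above the average sequencing depth that the labels state, and whether the mates of a read pair were counted singly is not given in the sources used here, so a read here is 1 unit of the authors' counting. A gene was called when its Benjamini-Hochberg adjusted p over all 18579 genes was under 0.05 in limma. The gene of GR itself, NR3C1, was lower in the S134A-GR line, at 8815 ± 259 against 11771 ± 1186 under Veh and 8692 ± 612 against 10775 ± 478 under TGFβ1. Here and for all normalized counts, also per kilobase, ± gives the SD with n = 3. For log2 fold changes ± gives the SE from limma. VIM, CD44 and EGFR, which mark this cell line, were abundant in all libraries, ESR1 was at 7.32 or less, CDH1 at 12.5 or less, and ERBB2 was present at 7229 to 10589. The epithelial marker EPCAM was lower in the S134A-GR line (378 ± 51.7 against 1024 ± 64.6 under Veh). SMAD target genes used as a check of the treatment (among them SMAD7, PMEPA1, TGFBI, SKIL and JUNB) were called higher with TGFβ1 in 6 of 6 cases in both lines. When the wt-GR response was subtracted from the S134A-GR response, 2 of these 6 were called lower and 0 higher. PMEPA1 (log2 -0.72) and JUNB (log2 -0.92) thus rose less in the S134A-GR line, where 0.248% of all genes were called lower. The difference in NR3C1 transcript level between the clones moves with every difference between lines below, and its part in them was not tested. GR protein was not measured in these libraries, and the authors reported equal total GR protein in the lines by western blot.

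PPARD, the receptor of the set, was higher with TGFβ1 in both lines and lower in the S134A-GR line than in wt-GR cells. It lies at chr6:35342558-35428191 on the plus strand. In wt-GR cells the 3 libraries had 5179.8, 4558 and 4766 normalized counts under Veh and 5971, 5535 and 5718 under TGFβ1. In S134A-GR cells they had 3914, 3662 and 3609.8 under Veh and 4390.1, 4629 and 4615 under TGFβ1. No library with TGFβ1 overlapped the Veh libraries of its line, and no S134A-GR library overlapped the wt-GR libraries of the same treatment. The TGFβ1 response was 1.19-fold in wt-GR cells (log2 0.25 ± 0.051, SE) and log2 0.29 ± 0.051 in the S134A-GR line. Under Veh the S134A-GR level was 1.30-fold lower (log2 -0.37), and under TGFβ1 it was 1.26-fold lower (log2 -0.34).

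ANGPTL4, the secreted lipase inhibitor at chr19:8363289-8374370, had the largest TGFβ1 response of the 6. In wt-GR cells it went from 1960.2, 1975 and 2134 normalized counts under Veh to 7604, 7674 and 7978 under TGFβ1. In S134A-GR cells it went from 1186, 1268 and 1122 to 5535, 6408 and 5558. The 4 groups were fully apart, in the order S134A-GR Veh, wt-GR Veh, S134A-GR TGFβ1 and wt-GR TGFβ1. TGFβ1 raised it 3.83-fold in wt-GR cells (2023 ± 96.5 to 7752 ± 199) and 4.89-fold in the S134A-GR line (1192 ± 73.5 to 5834 ± 498). Only 93 of the 18579 genes tested rose by a larger log2 fold change in wt-GR cells and 34 in the S134A-GR line. S134A-GR cells had 1.70-fold less ANGPTL4 than wt-GR cells under Veh (log2 -0.76 ± 0.062) and 1.33-fold less under TGFβ1 (log2 -0.41 ± 0.062). The response on the log2 scale was therefore larger in the S134A-GR line, by 0.35 (95% interval 0.16 to 0.54), but this difference between responses was not called. The rise in normalized counts was larger in wt-GR cells.

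HILPDA, the lipid droplet protein gene at chr7:128455849-128458418, was higher with TGFβ1 in both lines and was the only member of the 6 not called between the lines. Its wt-GR libraries had 1255, 1329.5 and 1379 normalized counts under Veh and 1661, 1545 and 1682 under TGFβ1. Its S134A-GR libraries had 1283, 1202 and 1261 under Veh and 1564, 1645 and 1509 under TGFβ1. TGFβ1 libraries lay above Veh libraries in each line, whereas the lines overlapped under both treatments. The response was 1.23-fold in wt-GR cells (log2 0.30 ± 0.057) and 1.26-fold in the S134A-GR line (log2 0.33 ± 0.057). The difference between lines was -0.08 on the log2 scale under Veh (95% interval -0.20 to 0.04) and -0.05 under TGFβ1 (-0.17 to 0.07). Of its 2070 annotated exonic bases, 175 and 186 are shared with same-strand long noncoding RNAs, ENSG00000273184 and HILPDA-AS1, so its count is uncertain to that extent. No other member shares exonic bases with another annotated gene.

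**Figure D1:**
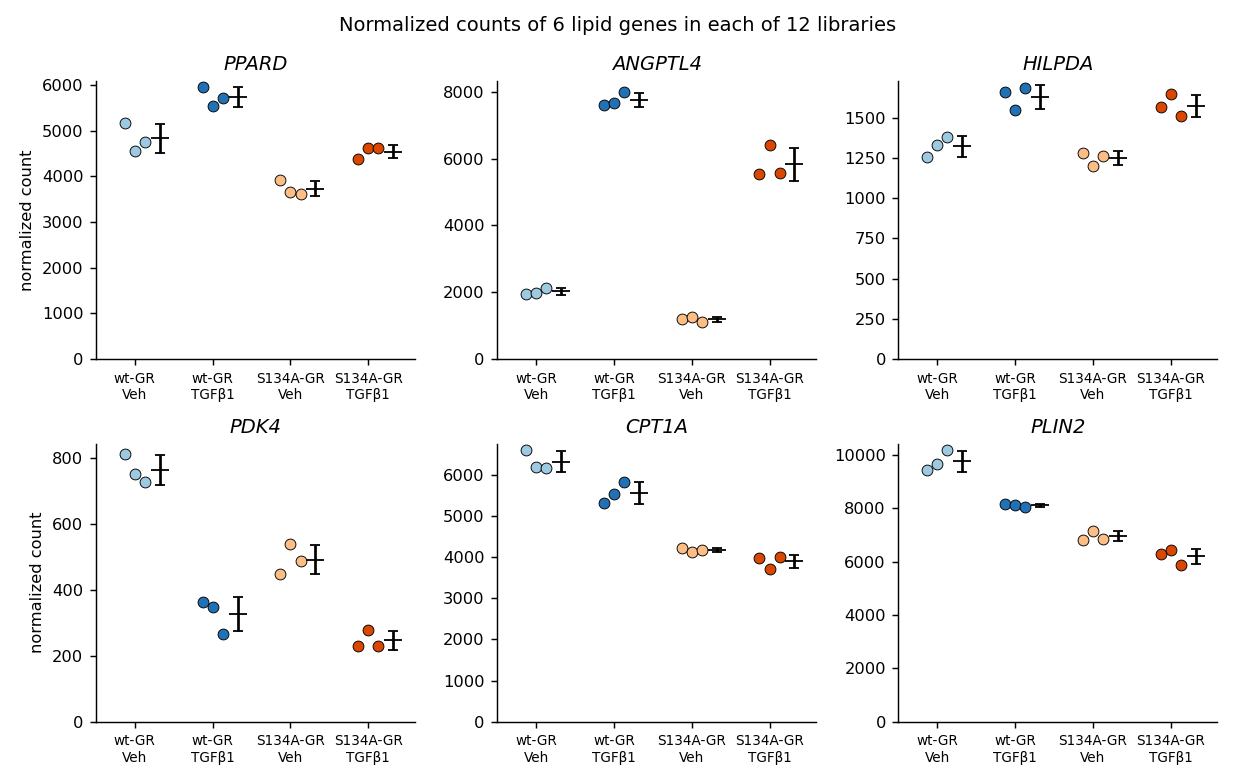
Normalized counts (vertical axes, from 0) of the 6 genes in each library (points) of the 4 groups (horizontal axes), with the group mean and SD beside them. ANGPTL4, PPARD and HILPDA are higher with TGFβ1 in each line, and PDK4, CPT1A and PLIN2 are lower, CPT1A without a call in S134A-GR cells. Every gene has a lower mean in the S134A-GR line than in wt-GR cells of the same treatment. For HILPDA this is without a call and with overlapping libraries, and for PDK4 the libraries overlap under TGFβ1.

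PDK4, the kinase that switches off pyruvate dehydrogenase and so spares glucose, fell with TGFβ1 in both lines. It lies at chr7:95583499-95596516 on the minus strand. In wt-GR cells it had 813, 750.4 and 726 normalized counts under Veh and 362, 349 and 267 under TGFβ1. In S134A-GR cells it had 449, 538 and 488 under Veh and 231, 279 and 229 under TGFβ1. Every TGFβ1 library was below every Veh library, also across lines. It was 2.36-fold lower with TGFβ1 in wt-GR cells (log2 -1.24 ± 0.12) and 1.99-fold lower in the S134A-GR line (log2 -0.996 ± 0.12). Under Veh it was 1.55-fold lower in the S134A-GR line (log2 -0.64 ± 0.12) without overlap of the lines. Under TGFβ1 it was 1.31-fold lower (log2 -0.39, 95% interval -0.66 to -0.13), the lines overlapped, and the call was lost without any 1 of 4 libraries, wt-GR TGFβ1 replicates 1 and 2 and S134A-GR TGFβ1 replicates 1 and 3.

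CPT1A, the enzyme that commits fatty acids to mitochondrial oxidation (chr11:68754620-68844410, minus strand), differed more between the lines than between treatments. In wt-GR cells it had 6606, 6178 and 6153 normalized counts under Veh and 5304, 5522 and 5826 under TGFβ1. In S134A-GR cells it had 4212, 4129 and 4179 under Veh and 3976, 3699.6 and 4001 under TGFβ1. All 6 S134A-GR libraries were below all 6 wt-GR libraries, and within each line the TGFβ1 libraries were below the Veh libraries. S134A-GR levels were 1.51-fold lower under Veh (log2 -0.60 ± 0.046) and 1.43-fold lower under TGFβ1 (log2 -0.51 ± 0.046). TGFβ1 lowered it 1.14-fold in wt-GR cells (log2 -0.19 ± 0.046), a call lost without wt-GR TGFβ1 replicate 1 (log2 -0.15). In S134A-GR cells the difference was log2 -0.10 (95% interval -0.20 to -0.0034) and was not called.

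PLIN2, a coat protein of lipid droplets (chr9:19108375-19149290, minus strand), had the same order of groups as CPT1A. In wt-GR cells it had 9442, 9667 and 10210.5 normalized counts under Veh and 8163, 8113 and 8059 under TGFβ1. In S134A-GR cells it had 6818, 7165 and 6869.6 under Veh and 6289, 6444 and 5882 under TGFβ1. The 4 groups did not overlap. S134A-GR levels were 1.41-fold lower under Veh (log2 -0.49 ± 0.041) and 1.31-fold lower under TGFβ1 (log2 -0.39 ± 0.041). With TGFβ1 it was 1.20-fold lower in wt-GR cells (log2 -0.27) and 1.12-fold lower in the S134A-GR line (log2 -0.16). The last call was lost without S134A-GR Veh replicate 2, without S134A-GR TGFβ1 replicate 3 and when only the groups compared were fitted. The log2 fold change was -0.14 and -0.13 without these libraries and still -0.16 in the fit of the groups compared.

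**Figure D2:**
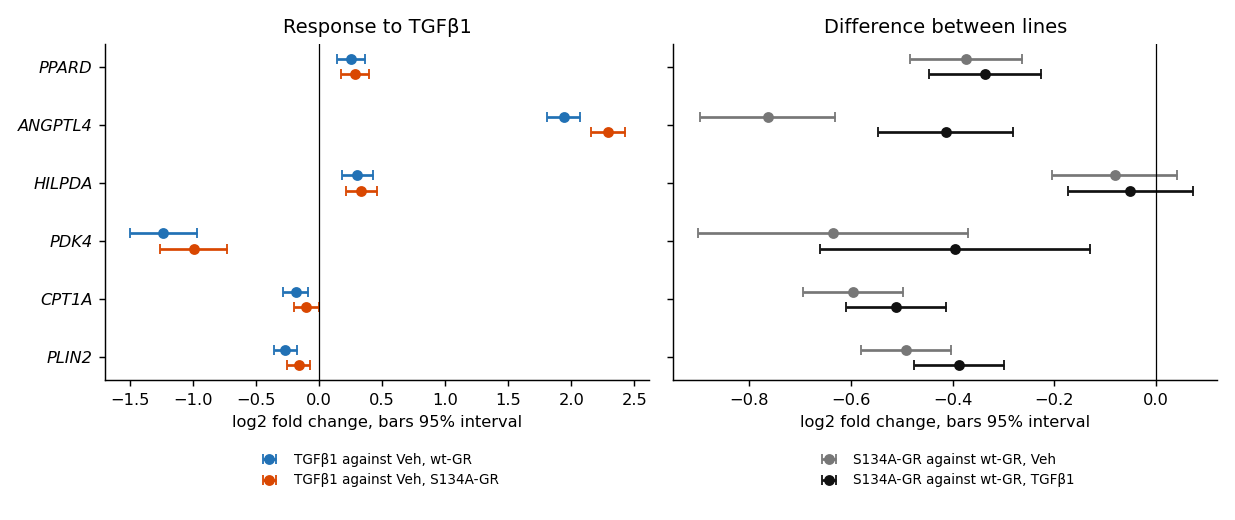
Log2 fold changes (horizontal axes) of the 6 genes, with 95% intervals from limma as bars. In the left panel TGFβ1 is compared with Veh in wt-GR and S134A-GR cells, and ANGPTL4 (1.94 and 2.29) and PDK4 (-1.24 and -0.996) lie farthest from 0. In the right panel S134A-GR is compared with wt-GR under Veh and under TGFβ1, and all points lie below 0, with only the HILPDA intervals reaching across it.

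With TGFβ1, 3 members were called higher in wt-GR cells and 3 lower, where 11.2% of all genes tested were called higher and 9.82% lower. In S134A-GR cells 3 were called higher and 2 lower, where 10.0% and 8.69% of all genes were. Between the lines 5 of 6 were called lower in the S134A-GR line under Veh, where 26.5% of all genes were called lower and 25.0% higher. Under TGFβ1 the same count of 5 was called lower, where 25.7% of all genes were lower and 23.1% higher. For the S134A-GR response minus the wt-GR response, 0 members were called in limma, where 0.167% of all genes were called higher and 0.248% lower. In limma 1 member had an unadjusted p under 0.05, as had 1728 of the 18579 genes tested. The edgeR test called 0 members and 78 genes in all, and DESeq2 called 208 genes in all, with ANGPTL4 among them. The median log2 fold change of the 6 was -0.54 between the lines under Veh and -0.39 under TGFβ1, against 0.02 and 0.01 over all genes. Nothing is read from these counts, because the genes were picked on this readout, and the comparisons share libraries with each other.

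Compared per kilobase of the canonical transcript, PLIN2 was the most abundant of the 6 and PDK4 the least in every group. Under Veh the order of levels in wt-GR cells was PLIN2 (5152 ± 208 normalized counts per kilobase), PPARD (1295 ± 84.8), CPT1A (1205 ± 48.5), ANGPTL4 (1081 ± 51.5), HILPDA (969 ± 46.0) and PDK4 (212 ± 12.5). Of these neighbours only PPARD and CPT1A had overlapping libraries. Under TGFβ1 ANGPTL4 moved to the second place in wt-GR cells, at 4141 ± 106 per kilobase against 4276 ± 27.4 for PLIN2, and their libraries overlapped. In S134A-GR cells ANGPTL4 moved from the fifth place under Veh (637 ± 39.2 per kilobase) to the second under TGFβ1 (3116 ± 266), again overlapping PLIN2 (3271 ± 153). The order depends on the length used. Per kilobase of all annotated exons ANGPTL4 was above PLIN2 under TGFβ1 in both lines, at 3132 ± 80.2 against 1619 ± 10.4 in wt-GR cells and 2357 ± 201 against 1238 ± 58.0 in the S134A-GR line.

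Across the 12 libraries the members fell into patterns that the group means already show. HILPDA followed ANGPTL4 (Pearson r = 0.958 of the log2 values) and CPT1A followed PLIN2 (r = 0.939), whereas PDK4 ran against ANGPTL4 (r = -0.727). PPARD was closer to ANGPTL4 (r = 0.771) than to PDK4 (r = -0.189). These values describe 12 libraries that share 2 lines and 2 treatments. Among 13275 genes with a mean of at least 50, the 5 most like ANGPTL4 were UCN2 (r = 0.999), PODXL (0.994), NKILA (0.992), WSB2 (0.99) and TPM1 (0.99). UCN2, which encodes the peptide urocortin 2, had 3062 ± 128 normalized counts in the wt-GR line under Veh and 13626 ± 490 under TGFβ1, and 1838 ± 94.1 and 10251 ± 1040 in the S134A-GR line. PODXL encodes a sialomucin of the cell surface and TPM1 a tropomyosin, and WSB2 shared the pattern with a far smaller change (12783 ± 142 to 15180 ± 174 in wt-GR cells). NKILA is a long noncoding RNA whose exons overlap those of PMEPA1, a SMAD target, on the opposite strand, and without a stated strand setting reads of the pair cannot be told apart. The 5 most like PDK4 were SSBP2 (0.988), CLDN2 (0.979), CTDSPL (0.977), KAT2B (0.973) and SLC6A9 (0.972). CLDN2, a claudin of tight junctions, had 193 ± 29.2 normalized counts in the wt-GR line under Veh and 58.4 ± 12.2 under TGFβ1, and 112 ± 15.4 and 42.8 ± 4.96 in the S134A-GR line. A value of 0.95 or more was reached by 111 genes for ANGPTL4 and 42 for PDK4.

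**Figure D3:**
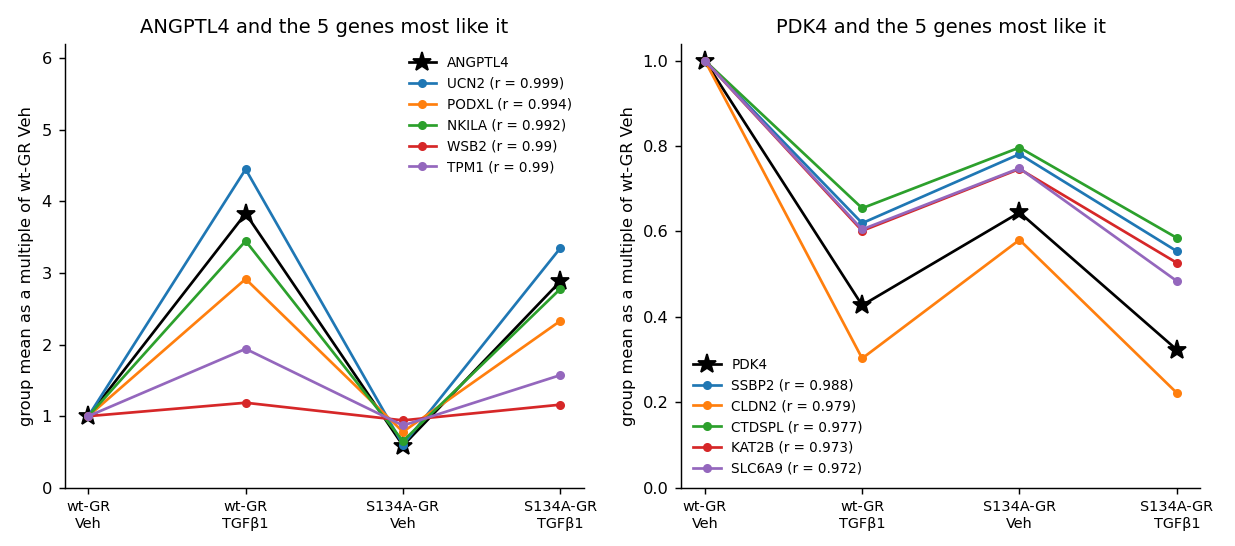
Group means (vertical axes, from 0) as multiples of the wt-GR Veh mean, for ANGPTL4 and PDK4 (stars) and the 5 genes most like each by Pearson r over the 12 libraries (points joined by lines to follow a gene). UCN2 reaches a higher multiple than ANGPTL4 with TGFβ1, WSB2 moves least, and CLDN2 falls further than PDK4.

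Of the pyruvate dehydrogenase kinases, PDK1 was called higher with TGFβ1 (log2 0.17 and 0.20 in wt-GR and S134A-GR cells) and PDK2 lower (log2 -0.37 and -0.34). PDK3 was not called for treatment (log2 -0.19 and 0.01). Among the perilipins, PLIN4 went from 647 ± 33.5 to 292 ± 22.5 normalized counts in the wt-GR line and from 337 ± 21.4 to 137 ± 27.3 in the S134A-GR line. PLIN3 was abundant (24153 to 32952) and not called for treatment, and PLIN1 and PLIN5 were at 57.0 and 7.1 or less. CPT1C, the brain form of CPT1A, ran opposite to it between the lines, with 1613 ± 17.3 in S134A-GR and 817 ± 6.99 in wt-GR cells under Veh (log2 0.98, adjusted p = 1.92e-09 in limma), and it was called lower with TGFβ1 in wt-GR (log2 -0.24) and S134A-GR cells (log2 -0.17). The latter call was lost without any 1 of S134A-GR Veh replicates 1, 2 and 3 and S134A-GR TGFβ1 replicates 1 and 2. CPT1B was at 74.5 or less. Of the other PPAR genes, PPARG was lower in the S134A-GR line (log2 -0.71, adjusted p = 4.99e-09 in limma, under Veh) and lower with TGFβ1 in both lines (log2 -0.40 and -0.37). PPARA was called lower in the S134A-GR line near the threshold, under Veh (log2 -0.20, adjusted p = 0.0487 in limma) and TGFβ1 (log2 -0.20, adjusted p = 0.0478). The lines overlapped under Veh. Its TGFβ1 responses were of similar size (log2 -0.18 in wt-GR and -0.19 in S134A-GR cells) and were not called. Of the other angiopoietin-like genes, only ANGPTL2 had more than 50 normalized counts in the mean, and it was lower in the S134A-GR line (387 ± 6.55 against 928 ± 9.89 under Veh).

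Wider lists of the same metabolism held 107 genes, 105 of them listed in the libraries and 102 tested. With TGFβ1 11 of the 102 rose and 24 fell in wt-GR cells, and 11 rose and 21 fell in the S134A-GR line. As shares of the 102 these were 10.8% higher and 23.5% lower with wt-GR, beside 11.2% and 9.82% of all genes tested, and 10.8% higher and 20.6% lower with S134A-GR, beside 10.0% and 8.69%. The shares called higher were thus near those of all genes, and the shares called lower were above them. All genes tested include those with as few as 10 reads over the 12 libraries. The lists were not matched to them by expression, here or in the comparisons below. The same shares of all genes stand behind the counts of the single lists that follow. The median log2 fold changes were -0.05 and -0.08, against -0.01 for all genes in each line. Of the falling genes 18 were shared, 75.0% of the wt-GR calls and 85.7% of the S134A-GR calls, and of the rising genes 9 were shared, 81.8% of each. The shared part of the calls was not computed for all genes, so it is not read as particular to these lists. The list of PPAR and RXR receptors and coregulators had 1 gene called higher and 5 lower of 15 in wt-GR cells, and 1 higher and 4 lower in the S134A-GR line. PPARGC1A, the coactivator PGC-1α, fell from 199 ± 42.5 to 60.8 ± 11.5 in wt-GR cells (log2 -1.69, adjusted p = 0.00022 in limma) and from 203 ± 4.10 to 60.3 ± 21.6 in the S134A-GR line (log2 -1.80, adjusted p = 0.000143). RXRA, the RXR partner most expressed here, fell from 6474 ± 275 to 3464 ± 195 in wt-GR cells (log2 -0.90, adjusted p = 1.08e-08 in limma) and from 5208 ± 92.3 to 3414 ± 157 in the S134A-GR line (log2 -0.61, adjusted p = 7.79e-07). RXRB had 32.3 to 63.5 normalized counts in 11 libraries and 366 in 1 S134A-GR Veh library, and it was not called. These libraries do not measure proteins, so a lower transcript level of a receptor partner is not a measure of receptor activity.

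Lipid droplet and lipolysis genes had 1 gene called higher and 5 lower of 17 in wt-GR cells, and 1 higher and 2 lower in the S134A-GR line. The rising gene in both was G0S2, which encodes an inhibitor of the lipase ATGL, as HILPDA does, at log2 0.31 in wt-GR cells and 0.60 in the S134A-GR line (adjusted p = 2.74e-06 in limma). Of the called genes PLIN4 fell by the most, log2 -1.15 (adjusted p = 2.07e-05 in limma) and -1.31 (adjusted p = 6.93e-06). In the list of the PDK family and the pyruvate dehydrogenase complex 2 rose and 3 fell of 11 in wt-GR cells, and 1 rose and 3 fell in the S134A-GR line, with PDK2 and the phosphatases PDP1 and PDP2 as the falling genes of both lines. The carnitine shuttle and mitochondrial oxidation list had 1 higher and 4 lower of 23 in wt-GR cells and 0 higher and 5 lower in the S134A-GR line. Fatty acid uptake and activation had 2 higher and 3 lower of 12 in wt-GR cells and 3 higher and 2 lower in the S134A-GR line.

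Peroxisomal oxidation genes had 2 higher and 4 lower of 12 in each line. ACOX3, a peroxisomal oxidase, rose in both (log2 0.78, adjusted p = 1e-07 in limma, and 0.52, adjusted p = 6.73e-06). For the difference in response between the lines 1 of the 102 genes of the wider lists was called in limma, and 13 had an unadjusted p under 0.05. Of all 18579 genes tested 77 were called and 1728 had an unadjusted p under 0.05 in limma. The count of called list genes was 0 without wt-GR Veh replicate 2, wt-GR TGFβ1 replicate 1, wt-GR TGFβ1 replicate 2 or S134A-GR Veh replicate 2, and 2 without S134A-GR TGFβ1 replicate 1.
The angiopoietin-like and lipoprotein lipase list had 2 higher and 0 lower of 12 in wt-GR cells, and 3 higher and 1 lower in the S134A-GR line. LPL, the lipase that ANGPTL4 inhibits, was at 7.32 normalized counts or less in wt-GR libraries and at 0 in all 6 S134A-GR libraries. It was called lower with S134A-GR under TGFβ1 (adjusted p = 0.00682 in limma). There the wt-GR libraries had 4.44, 7.32 and 4.07 normalized counts, above but near the floor of 3 reads. Under Veh they had 0, 5.28 and 0, and LPL was not called between the lines (adjusted p = 0.321 in limma). All 12 libraries together held 23 LPL reads, so the call rests on few reads.

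**Figure D4:**
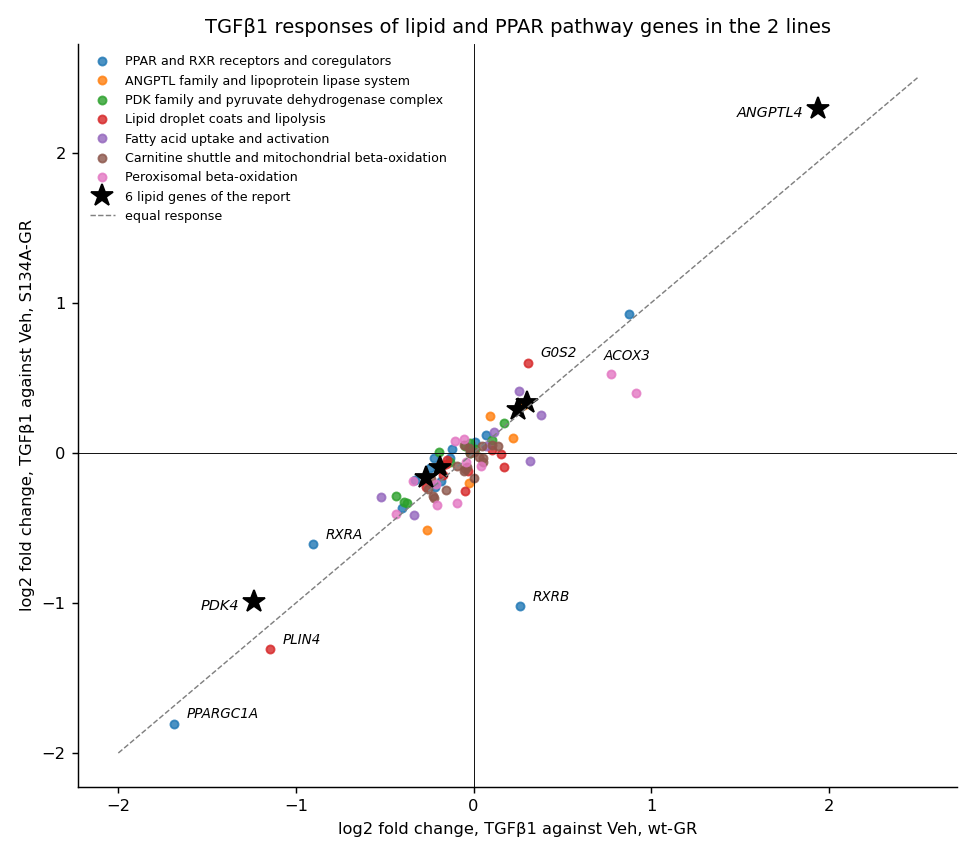
Log2 fold change with TGFβ1 in wt-GR cells (horizontal axis) against that in the S134A-GR line (vertical axis) for the 6 genes (stars) and for genes of 7 wider lists with a mean of at least 50 (points, 1 color per list). The dashed line marks equal responses. ANGPTL4 lies alone at the upper right, and PDK4 lies with PPARGC1A, PLIN4 and RXRA at the lower left; RXRB is off the line through 1 library.

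Between the lines the wider lists went in both directions. Under Veh 20 of the 102 were higher and 39 lower in the S134A-GR line, and under TGFβ1 22 were higher and 35 lower. These were 19.6% higher and 38.2% lower under Veh, beside 25.0% and 26.5% of all genes tested, and 21.6% higher and 34.3% lower under TGFβ1, beside 23.1% and 25.7%. The calls shared by both treatments were 18 higher and 30 lower genes, 90.0% and 76.9% of those under Veh. Here too the shared part was not computed for all genes. The median log2 fold change was -0.02 under Veh and -0.10 under TGFβ1. The receptor and coregulator list had 0 higher and 9 lower of 15 under Veh, among them PPARG, RXRA and LPIN1, and 1 higher and 5 lower under TGFβ1. FABP5, a fatty acid binding protein that carries ligands to PPARδ, had the largest fall among the called genes with a mean of at least 50, at 15.1 ± 5.74 against 91.3 ± 19.8 under Veh (log2 -2.57, adjusted p = 6.78e-05 in limma) and 15.1 ± 7.16 against 116 ± 37.5 under TGFβ1 (log2 -2.94, adjusted p = 2.17e-05). FABP5 has many near-identical processed copies in the genome, so its count is uncertain.
LIPG, the endothelial lipase that ANGPTL family proteins also inhibit, was lower in the S134A-GR line under Veh (4454 ± 121 against 9241 ± 437, log2 -1.05, adjusted p = 1.18e-10 in limma). ANGPTL2 was lower under both treatments (log2 -1.26 and -1.51). LMF1, which matures lipoprotein lipase, was higher (log2 1.21 under Veh, adjusted p = 6.28e-07 in limma, and 1.04 under TGFβ1), as was DGAT1, the final enzyme of triglyceride synthesis, under Veh (log2 0.69, adjusted p = 6.08e-06). Peroxisomal oxidation genes had 3 higher and 6 lower of 12 under Veh, and the carnitine and mitochondrial oxidation list had 7 higher and 7 lower of 23.

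**Figure D5:**
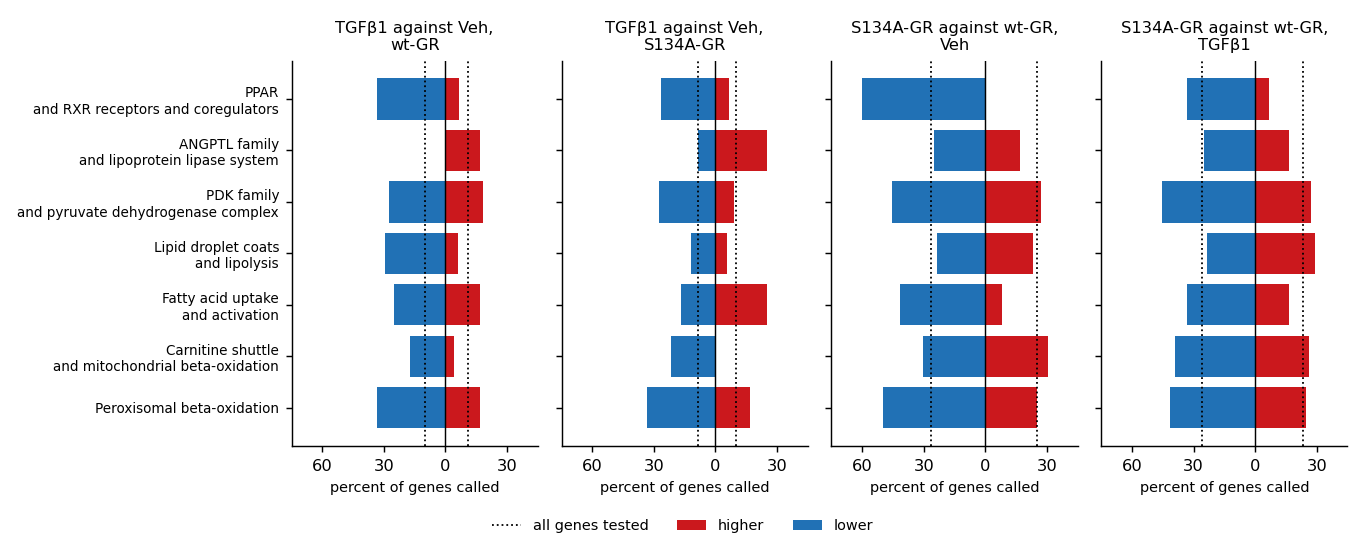
Percent of the tested genes of each of 7 wider lists called higher (right of 0) or lower (left of 0) in 4 comparisons, with dotted lines at the percent of all genes tested. In the receptor and coregulator list the calls are mostly lower genes in all 4 panels, and 9 of its 15 genes are lower in the S134A-GR line under Veh.

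Hypoxia target genes were listed beside the members because ANGPTL4, HILPDA and PLIN2 are also known targets of hypoxia-inducible factors. Of CA9, VEGFA, ADM, NDRG1, EGLN3, BNIP3, SLC2A1 and PFKFB4, 7 of 8 were lower in the S134A-GR line under Veh and 7 of 8 under TGFβ1, where 26.5% and 25.7% of all genes tested were called lower. Their median log2 fold changes were -0.55 and -0.42, against 0.02 and 0.01 over all genes. TGFβ1 raised 3 of the 8 in each line, where 11.2% and 10.0% of all genes were called higher, VEGFA, SLC2A1 and PFKFB4. HILPDA was not called between the lines. Of 6 tested glucocorticoid target genes, listed because ANGPTL4 and PDK4 are also known GR targets, 1 was higher and 1 lower in the S134A-GR line under Veh (PER1, log2 0.58, and TSC22D3, log2 -0.55). Under TGFβ1 1 was called higher and 2 lower. Of all genes 25.0% were called higher and 26.5% lower under Veh, and 23.1% and 25.7% under TGFβ1. SGK1 rose with TGFβ1 in both lines, from 903 ± 60.5 to 2106 ± 87.3 normalized counts with wt-GR and from 943 ± 21.6 to 1980.5 ± 165 with S134A-GR. DUSP1 was called higher in wt-GR cells (log2 0.22, adjusted p = 0.00383 in limma) and not in S134A-GR cells (log2 0.06). The difference between its responses was not called.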

How the data were processed

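RNA-seq libraries (TruSeq, HiSeq2500) of 4 groups of 3 were analysed. The deposited signal of each gene is a normalized count: the authors used Trimmomatic, HISAT2 on hg38 and featureCounts, then divided by DESeq2 (1.22.2) size factors. The annotation and strand setting are not given in the sources used here. Values were whole multiples of 1 read in 100% of cases (tolerance 0.01 reads), which gave library totals of 56362036 to 129832227 reads; floors of 3 reads cover counting error only. Log2(value + 1) of genes with at least 10 reads over the 12 libraries was fitted with limma 3.58.1 (R 4.3.3; trend, 4 group means) with Benjamini-Hochberg adjustment; fold changes on this scale understate the change of low genes. edgeR 4.0.16 and DESeq2 1.42.0 on recovered reads were alternatives, with other pseudocounts (0.5, 16), filters, TMM scaling, a replicate block and leaving out each library. The exact permutation test of 3 against 3 cannot go below 0.1. The script for limma was tested on simulated data.

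The 6 members and all gene lists were chosen with earlier results of these data known. From the wider lists the 3 called genes of largest fold change per comparison and direction with a mean of at least 50 were named, with the paralogs of the members and every gene called for the difference in response. Further genes (LPL, RXRB and those named by list) were chosen after their values were seen. Genes most like a member were ranked by Pearson r. Coordinates are GENCODE v44 (GRCh38, the build of hg38), and promoter windows are RefSeq. ANGPTL8, CIDEB, ZBTB16 and PGR were not analysed here, and some genes counted in the lists or chosen by the rule are not reported by name here.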

Additional observations from a re-analysis of the deposited data

How the results depend on the processing

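Of 22 settings 1 only added a cutoff on fold change size, and the other 21 gave 624 recomputed member fold changes. Of these 0 reversed, and all 624 moved by less than 1 SD between replicates, as limma estimated it over all groups. Of 624 member calls 9 changed (those of PDK4, PLIN2, CPT1A and ANGPTL4 given above). When calls also needed a log2 fold change of 1 or more in size, the wider lists had 7 calls between the lines under Veh, 7 under TGFβ1, 3 with TGFβ1 in wt-GR cells, 2 in S134A-GR cells and 0 for the difference in response, and the members had 0, 0, 2, 1 and 0. In the same order, 1767, 1571, 425, 309 and 11 of all 18579 genes tested were called at this cutoff. For the difference in response DESeq2 called 208 of all 18579 genes tested, where limma called 77. Among the 208 were 3 genes of the wider lists and 1 member, ANGPTL4, which no other alternative called. Leaving out 1 library at a time gave 0 to 2 calls of the wider lists there. The cause was not tested. Deviations of libraries with the same number had a mean r of 0.0003 (-0.105 to 0.128, 18 pairs), so the numbers are not taken as pairs; with the replicate block the ANGPTL4 difference in response was 0.35, and no member call changed. Depth did not limit the members; it limits LPL, CDH1 and ESR1, which lie near the floor.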
